A study of Mus musculus with 12 samples.

Results

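The 35 genes described here encode the transporters and enzymes of glycolysis and components of the cellular response to low oxygen. They were taken as a list of named genes and were 35 of the 36439 genes counted in RNA sequencing libraries of mouse tumour-associated macrophages (TAMs), the macrophages inside a solid tumour. All 35 were found in the count tables by symbol. All 35 also passed the low-count filter in both comparisons below.

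The host mice were C57BL/6, and their tumours were Lewis lung carcinoma, a mouse line that grows when injected subcutaneously. There were 12 libraries in 4 groups of 3. MRC1+ TAMs carried the macrophage surface protein F4/80 and the mannose receptor MRC1, and CD11c+ TAMs carried F4/80 and the integrin CD11c. The other two groups were F4/80+ TAMs from the SFFV.miR-511-3p and SFFV.miR-511-3p-mut series, which overexpressed the microRNA miR-511-3p or a mutated form of it. The labels do not spell out SFFV, the age of the mice, how the transgene was delivered or the sequence of the mutated form. Replicates are numbered in the labels without being tied to individual mice. The p-values therefore reflect spread among libraries that could be technical.

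Glycolysis breaks glucose down to pyruvate in the cytosol and yields ATP without oxygen. Under low oxygen the prolyl hydroxylases EGLN1 and EGLN3 no longer mark the HIF alpha subunits for destruction, and stabilised HIF-1α (Hif1a) or HIF-2α (Epas1) binds hypoxia response elements and raises transcription of many glycolytic genes. Tumours hold poorly perfused areas in which macrophages collect, and inflammatory activation of macrophages also raises HIF-1α and glycolysis.

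The sorted libraries held 10824918 to 17689064 reads assigned to genes, and the overexpression libraries 22906418 to 27890433. Levels are given as CPM, read counts relative to the library total after edgeR's TMM scaling, which was done separately in each pair of groups. Levels of different genes are compared per kb of exon, and without regard to length only where this is said. The macrophage markers Adgre1, Csf1r, Cd68, Itgam, Fcgr1 and Mertk were detected in every group, with summed levels of 4090 to 4630 CPM in MRC1+, 3690 to 4680 in CD11c+, 6480 to 7320 in miR-511-3p and 6140 to 6790 in miR-511-3p-mut TAMs. The first CD11c+ library stood apart, with 13 fibroblast marker genes summing to 1710 CPM against 444 and 467 CPM in the other CD11c+ libraries. Results that rest on this library are given with and without it.

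The promoters of the 7 genes that differed between MRC1+ and CD11c+ TAMs are shown because HIF acts through a short core motif near the start sites of glycolytic genes. Each runs 5′ to 3′ from 250 bases before to 50 bases after the first start site listed by RefSeq on GRCm38.p6. Capitals mark the core ACGTG or GCGTG, or its reverse complement on the other strand. A CACGTG holds the core on both strands and was counted on both. The first 5 genes were lower in MRC1+ TAMs and the last 2 higher.
Aldoc (ENSMUSG00000017390), chr11:78322823-78323122, plus strand: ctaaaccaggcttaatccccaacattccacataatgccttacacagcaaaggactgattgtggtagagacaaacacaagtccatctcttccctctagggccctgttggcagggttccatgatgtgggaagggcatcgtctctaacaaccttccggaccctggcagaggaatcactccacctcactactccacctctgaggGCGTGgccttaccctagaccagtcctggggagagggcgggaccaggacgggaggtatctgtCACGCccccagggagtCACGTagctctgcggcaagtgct
Pfkp (ENSMUSG00000021196), chr13:6648722-6649021, minus strand: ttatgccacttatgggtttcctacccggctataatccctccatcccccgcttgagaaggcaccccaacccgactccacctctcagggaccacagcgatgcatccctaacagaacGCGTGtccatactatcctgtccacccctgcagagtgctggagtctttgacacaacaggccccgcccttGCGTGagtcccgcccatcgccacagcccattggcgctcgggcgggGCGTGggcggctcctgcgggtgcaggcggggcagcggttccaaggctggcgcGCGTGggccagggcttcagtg
Slc16a3 (ENSMUSG00000025161), chr11:120948817-120949116, plus strand: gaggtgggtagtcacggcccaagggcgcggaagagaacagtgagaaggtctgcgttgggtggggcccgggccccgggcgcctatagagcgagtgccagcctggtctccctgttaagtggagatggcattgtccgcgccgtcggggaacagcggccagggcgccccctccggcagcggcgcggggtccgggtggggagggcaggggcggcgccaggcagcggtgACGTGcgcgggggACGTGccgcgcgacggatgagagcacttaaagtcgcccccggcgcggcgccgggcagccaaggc
Pfkfb4 (ENSMUSG00000025648), chr9:108991652-108991951, plus strand: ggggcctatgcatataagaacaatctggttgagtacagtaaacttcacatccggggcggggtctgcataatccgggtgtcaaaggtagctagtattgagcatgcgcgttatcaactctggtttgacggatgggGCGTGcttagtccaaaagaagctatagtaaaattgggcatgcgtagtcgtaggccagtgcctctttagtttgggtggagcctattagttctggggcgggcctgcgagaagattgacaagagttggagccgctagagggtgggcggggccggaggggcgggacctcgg
Hif1a (ENSMUSG00000021109), chr12:73907617-73907916, plus strand: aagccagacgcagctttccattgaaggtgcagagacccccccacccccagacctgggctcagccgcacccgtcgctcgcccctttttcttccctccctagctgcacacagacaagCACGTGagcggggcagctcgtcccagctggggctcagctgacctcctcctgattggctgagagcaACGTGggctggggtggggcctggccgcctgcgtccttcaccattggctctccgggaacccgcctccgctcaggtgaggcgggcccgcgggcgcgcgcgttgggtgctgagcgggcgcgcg
Pfkm (ENSMUSG00000033065), chr15:98092339-98092638, plus strand: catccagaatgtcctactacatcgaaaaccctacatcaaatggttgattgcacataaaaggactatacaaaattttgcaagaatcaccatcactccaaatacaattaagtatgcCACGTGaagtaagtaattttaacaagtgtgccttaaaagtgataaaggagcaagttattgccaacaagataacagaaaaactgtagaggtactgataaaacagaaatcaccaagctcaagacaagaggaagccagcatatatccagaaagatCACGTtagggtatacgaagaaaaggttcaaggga
Eno2 (ENSMUSG00000004267), chr6:124769624-124769923, minus strand: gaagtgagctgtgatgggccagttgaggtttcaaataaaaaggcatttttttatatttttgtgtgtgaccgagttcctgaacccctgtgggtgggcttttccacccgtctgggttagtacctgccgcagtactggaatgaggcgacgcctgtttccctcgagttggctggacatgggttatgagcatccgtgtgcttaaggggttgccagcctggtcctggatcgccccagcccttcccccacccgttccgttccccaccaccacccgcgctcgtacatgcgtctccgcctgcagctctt

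The core occurred 4 times in the Pfkp window, 3 times each in Aldoc, Hif1a and Pfkm, 2 times in Slc16a3 and 1 time in Pfkfb4. It was not in the Eno2 window. RefSeq lists further start sites for Pfkm, whose windows held 2, 1 and 0 cores, and for Aldoc, whose second window held 1. Of the 31 members with a RefSeq promoter entry, 25 (80.6%) held the core in the first-listed window, with a median of 2 cores. Over all 27025 genes with an entry the share was 43.8%, and the median was 0. The windows of the members were also richer in G and C, with a median of 64.7% against 52.7% over all genes, and both cores hold a CG pair. Bnip3l, Epas1, Slc2a3 and Ndrg1 were not among the entries used here. The matches are a description of these letters and were not tested as binding sites.

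The second kind of sequence shown is the microRNA itself, since the overexpression groups differ in it. The mature strand lies at chr2:14261051-14261072 (GRCm38.p6, plus strand) in the RefSeq table, and capitals mark its seed, bases 2 to 8.
mmu-miR-511-3p: aAUGUGUAgcaaaagacaggau
The seed pairs with the letters TACACAT. Of the 35 members, 3 (8.57%) held this match in their longest annotated 3′ UTR (GENCODE M21), against 12.4% of 21092 genes. The median 3′ UTR was 1427 bases long in the members and 1090 in all genes. The matches lay in Slc2a3 at chr6:122728105-122728111 (minus strand), in Ldha at chr7:46854011-46854017 (plus strand), and 2 times in Pdk1, at chr2:71901062-71901068 and chr2:71901604-71901610 (plus strand), all on GRCm38. They are shown with 10 bases on either side.
Slc2a3: cctcggtgctTACACATttcagaccct
Ldha: gctgaaaggtTACACATcctgggccat
Pdk1, first match: gtcgggttgcTACACATtaggggacat
Pdk1, second match: ctctgtgtccTACACATacatacatct

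The glycolytic genes with most reads per kb of exon were the same 4 in every group: Aldoa, Pkm, Tpi1 and Ldha, in that order. The order depends on the annotated exon length, 2911 bases for Aldoa and 5001 for Pkm. Without regard to length Pkm lay above Aldoa, with means of 1260 against 798 CPM in MRC1+ and 1400 against 964 CPM in CD11c+ TAMs. The mean levels of the 4 per kb were 274, 252, 245 and 191 CPM in MRC1+ TAMs and 331, 279, 273 and 219 CPM in CD11c+ TAMs. In the miR-511-3p group they were 389, 232, 182 and 172 CPM per kb.

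Some members share much of their sequence with other genes. Gapdh stood at 16 to 34.9 CPM in the sorted libraries. Of the 36-base windows of its transcript, 91.7% occurred exactly in transcripts of 293 other annotated genes. Reads that align to several places were not counted to genes, and the effect of this on each level was not tested. The same share was 75.9% for Eno1, 68.2% for Pgk1, 55% for Mif, 45.6% for Pkm, 42% for Pgam1 and 29.4% for Ldha. It was 28.1% for Gpi1, 27.6% for Bnip3l, 27.5% for Aldoa, 25.5% for Bnip3 and 14.4% for Tpi1. It was 0 for Aldoc, Pfkp, Pfkm and Slc16a3, 0.029% for Pfkfb4, 1.12% for Eno2 and 2.47% for Hif1a, the 7 genes that passed the test below. The levels of Gapdh, Eno1 and Pgk1 are uncertain, and the effect on the order of members by reads per kb was not tested.

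The first comparison asked how TAMs that carry MRC1 differ from those that carry CD11c. Of the 35 genes, 7 differed. Aldoc, Pfkp, Slc16a3, Pfkfb4 and Hif1a were lower in MRC1+ TAMs, by 1.25 to 3.48 times, and Pfkm and Eno2 were higher, by 1.43 and 2.14 times. Aldoc, the brain-type aldolase that splits fructose 1,6-bisphosphate, showed the largest difference. A gene counts as different here where edgeR's quasi-likelihood test gave an adjusted p below 0.05 (Benjamini-Hochberg over all 15622 genes tested).

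Among all genes tested, 6.91% were higher and 9.71% lower in MRC1+ TAMs by the same test. The 2 higher members are 2 of 35 and the 5 lower members 5 of 35, so both shares lie near those of all genes. Without CD11c+ replicate 1 the test called 3 members higher and 9 lower, without MRC1+ replicate 2 or 3 or CD11c+ replicate 2 it called 0 and 2, without MRC1+ replicate 1 3 and 3, and without CD11c+ replicate 3 2 and 3. The estimates of 24 members were below 0, and the median log2 fold change of the 35 was -0.15, against 0.01 over all genes tested. The 3 libraries of one group lay wholly above those of the other for 3 members (Pfkm, Eno2 and Pdk1), where all genes give 18.7%, and wholly below for 11, where all genes give 19.6%. The 11 were the 5 lower genes with Gpi1, Pgk1, Pgam1, Eno1, Ldha and Ndrg1. The other 21 overlapped. By role, the median was lowest for the 3 transport genes (-0.33) and highest for the 2 genes of the fate of pyruvate (0.02). Those 2 went opposite ways, Ldha at -0.20 and Pdk1 at 0.23.

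**Figure D1:**
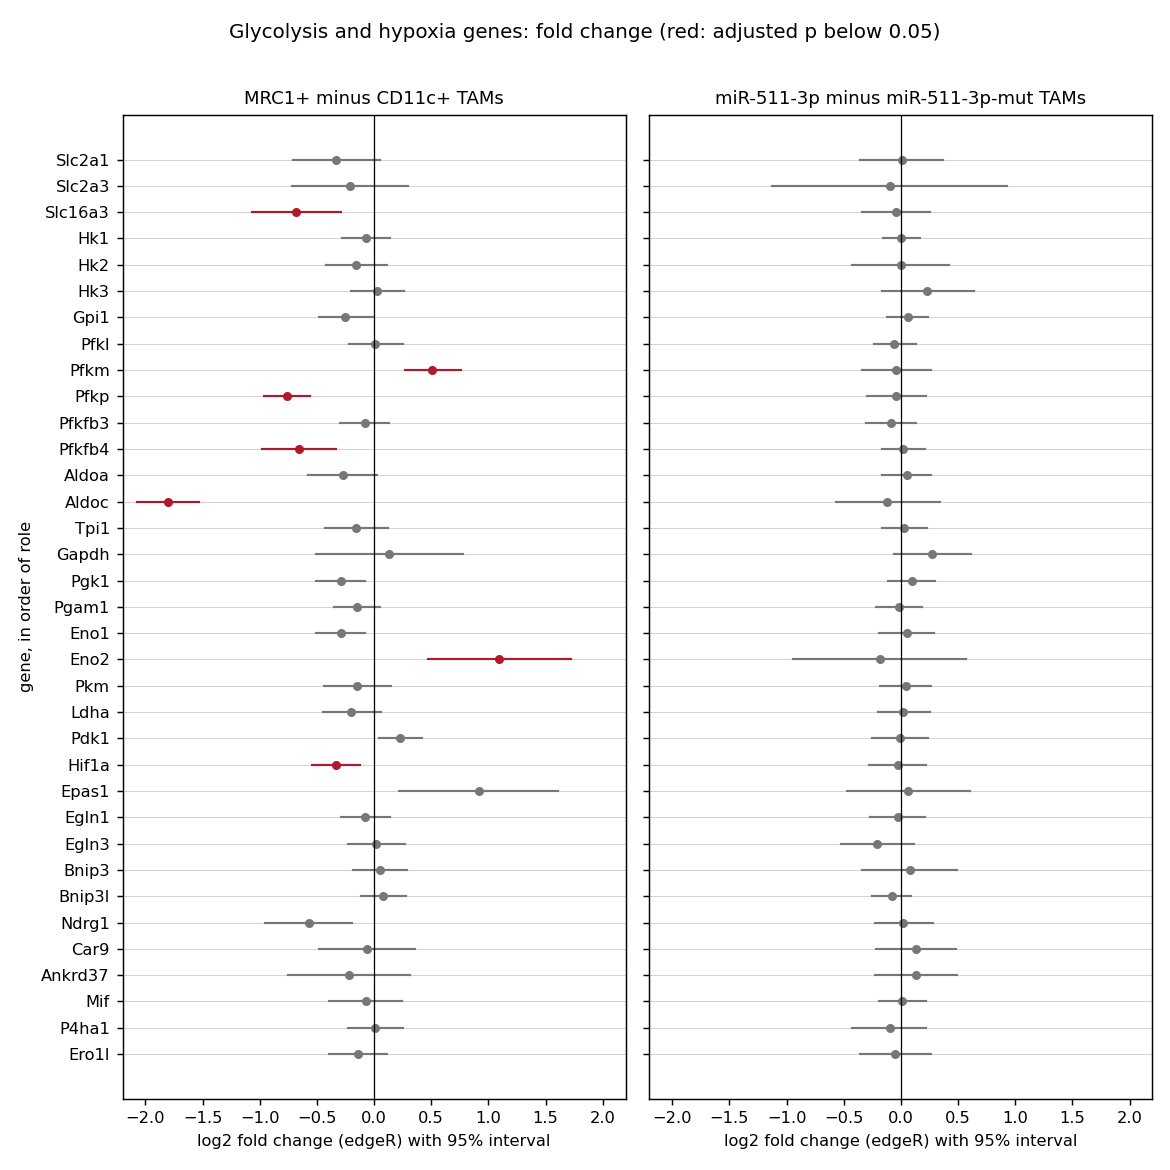
Log2 fold change of the 35 genes, in order of role from glucose entry to HIF targets, in MRC1+ minus CD11c+ TAMs (left) and miR-511-3p minus miR-511-3p-mut TAMs (right). Points are edgeR estimates from 3 libraries per group, lines are 95% intervals, and red marks an adjusted p below 0.05. On the left Aldoc stands far to the left at -1.80, and on the right no gene is red and all estimates lie between -0.21 and 0.27.

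Slc16a3 encodes MCT4, the transporter that exports lactate from glycolytic cells. It stood at 223, 199 and 223 CPM in the MRC1+ libraries and at 262, 340 and 432 CPM in the CD11c+ libraries. The groups did not overlap, and the CD11c+ libraries were spread more widely. The log2 fold change was -0.68 ± 0.17 (SE), with an adjusted p of 0.0293 in edgeR's test. The call was lost when MRC1+ replicate 1, 2 or 3 was left out (adjusted p = 0.0768, 0.104 and 0.0785), and without CD11c+ replicate 2 or 3 (0.0756 and 0.0507). Without the first CD11c+ library the log2 fold change was -0.85, with an adjusted p of 0.00133.

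The glucose transporters did not pass the test. Slc2a1 encodes GLUT1, which brings glucose into most cells, and held 98.7% of the reads per kb of the pair Slc2a1 and Slc2a3 in MRC1+ TAMs and 98.8% in CD11c+ TAMs. It stood at 377, 332 and 431 CPM in MRC1+ and at 421, 414 and 599 CPM in CD11c+ libraries. The third CD11c+ library lay above all the others, which overlapped. The log2 fold change was -0.33 ± 0.17 (SE), adjusted p = 0.203. Slc2a3, which encodes the high-affinity transporter GLUT3, stood between 9.29 and 16.1 CPM.

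The 4 genes of the hexose phosphate steps showed no difference that passed the test. Hexokinases trap glucose in the cell by phosphorylating it, and glucose phosphate isomerase (Gpi1) makes fructose 6-phosphate from the product. Hk2, the inducible hexokinase with most reads per kb in both sorted groups, had a mean of 284 ± 22.4 CPM in MRC1+ and of 316 ± 38 CPM in CD11c+ libraries (SD, n = 3). These ranges overlapped, with a log2 fold change of -0.16 ± 0.11 (SE). Hk1 and Hk3 had log2 fold changes of -0.07 ± 0.09 and 0.03 ± 0.10 (SE). Gpi1 was lower in each MRC1+ library, with 194 to 210 against 221 to 272 CPM and a log2 fold change of -0.25 ± 0.10 (SE), adjusted p = 0.135.

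The phosphofructokinase step, which commits glucose to glycolysis, held 3 of the 7 genes. The enzyme is built from the liver (Pfkl), muscle (Pfkm) and platelet (Pfkp) subunits. Pfkp had a mean of 315 ± 3.02 CPM (SD, n = 3) in MRC1+ libraries, the highest at 318, and stood at 502, 526 and 570 CPM in CD11c+ libraries. The MRC1+ libraries lay close together, and every CD11c+ library was above them. The difference on the log2 scale was -0.76 ± 0.09 (SE), with an adjusted p of 0.00102 in edgeR's test.

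Pfkm moved the other way. It stood at 19.8, 19.4 and 20.3 CPM in MRC1+ and at 15.1, 13.7 and 12.8 CPM in CD11c+ libraries, with no overlap. Its log2 fold change was 0.51 ± 0.11 (SE), adjusted p = 0.0151. Without MRC1+ replicate 2 or 3, or without CD11c+ replicate 2, the adjusted p was 0.0667, 0.0791 and 0.0597. Pfkl stood at 303, 253 and 291 CPM in MRC1+ and at 276, 261 and 302 CPM in CD11c+ libraries, which overlapped, and its log2 fold change was 0.01 ± 0.10 (SE) with a 95% interval from -0.22 to 0.25.

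The shares of the subunits in the step followed the same directions. Per kb of exon, Pfkp made up 31.2%, 35% and 32.3% of the 3 subunit genes in the MRC1+ libraries and 44.9%, 47.5% and 46.5% in the CD11c+ libraries. The share of Pfkl was 60.8%, 56.4% and 59.4% against 49.6%, 47.5% and 49.4%. That of Pfkm was 7.97%, 8.65% and 8.28% against 5.43%, 4.97% and 4.17%. For all 3 the groups did not overlap. Per kb, Pfkl was the main subunit gene in MRC1+ TAMs, and Pfkl and Pfkp were near each other in CD11c+ TAMs. This ranking depends on the annotated exon length, 13401 bases for Pfkp and 6675 for Pfkl. By reads alone Pfkp held the larger mean share, 51.1% against 45.7% for Pfkl in MRC1+ and 64.4% against 33.9% in CD11c+ TAMs. The groups did not overlap on that scale either. The shares carry no test of their own.

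Pfkfb3 and Pfkfb4 encode bifunctional enzymes that set the level of fructose 2,6-bisphosphate, the main activator of phosphofructokinase. Pfkfb4 stood at 57.3, 45.2 and 40.3 CPM in MRC1+ and at 69.6, 83.5 and 71.8 CPM in CD11c+ libraries, with no overlap. It differed by a log2 fold change of -0.66 ± 0.14 (SE), adjusted p = 0.0165. Without MRC1+ replicate 2 or 3, or without CD11c+ replicate 2, the adjusted p was 0.0664, 0.0567 and 0.0623. Pfkfb3 stood between 92.1 and 114 CPM in the 6 libraries, with overlap and a log2 fold change of -0.08 ± 0.09 (SE). Pfkfb4 held 37.4% to 44.8% of the pair's reads per kb in MRC1+ libraries and 49.4% to 54.5% in CD11c+ libraries.

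Between triose phosphates and pyruvate, 1 gene was lower and 1 higher, and 7 of 9 did not pass the test. Aldoc stood at 20, 16.9 and 16.6 CPM in MRC1+ and at 56.7, 60.2 and 69.2 CPM in CD11c+ libraries. Every CD11c+ library lay far above the highest MRC1+ library. This was a log2 fold change of -1.80 ± 0.12 (SE), adjusted p = 7.80e-05. Aldoa, the main aldolase, stood at 831, 740 and 823 CPM against 824, 927 and 1140 CPM, which overlapped, with a log2 fold change of -0.27 ± 0.13 (SE) and an adjusted p of 0.193. Aldoc was thus the minor form in both groups, with 1.77% to 2.10% of the aldolase reads per kb in MRC1+ libraries and 5.13% to 5.79% in CD11c+ libraries.

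Eno2, known as neuronal enolase, stood at 5.04, 7.28 and 7.56 CPM in MRC1+ and at 2.34, 2.80 and 4.43 CPM in CD11c+ libraries. These are low levels, from 343 reads in the 3 MRC1+ and 130 reads in the 3 CD11c+ libraries. The groups did not overlap, and the log2 fold change was 1.09 ± 0.27 (SE), adjusted p = 0.0298. Without MRC1+ replicate 2 or 3, or without CD11c+ replicate 2, the adjusted p was 0.111, 0.112 and 0.1. Eno1, the general enolase, was in the opposite direction, with 148 to 160 CPM in MRC1+ and 175 to 206 CPM in CD11c+ libraries and a log2 fold change of -0.29 ± 0.09 (SE), adjusted p = 0.0657.

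**Figure D2:**
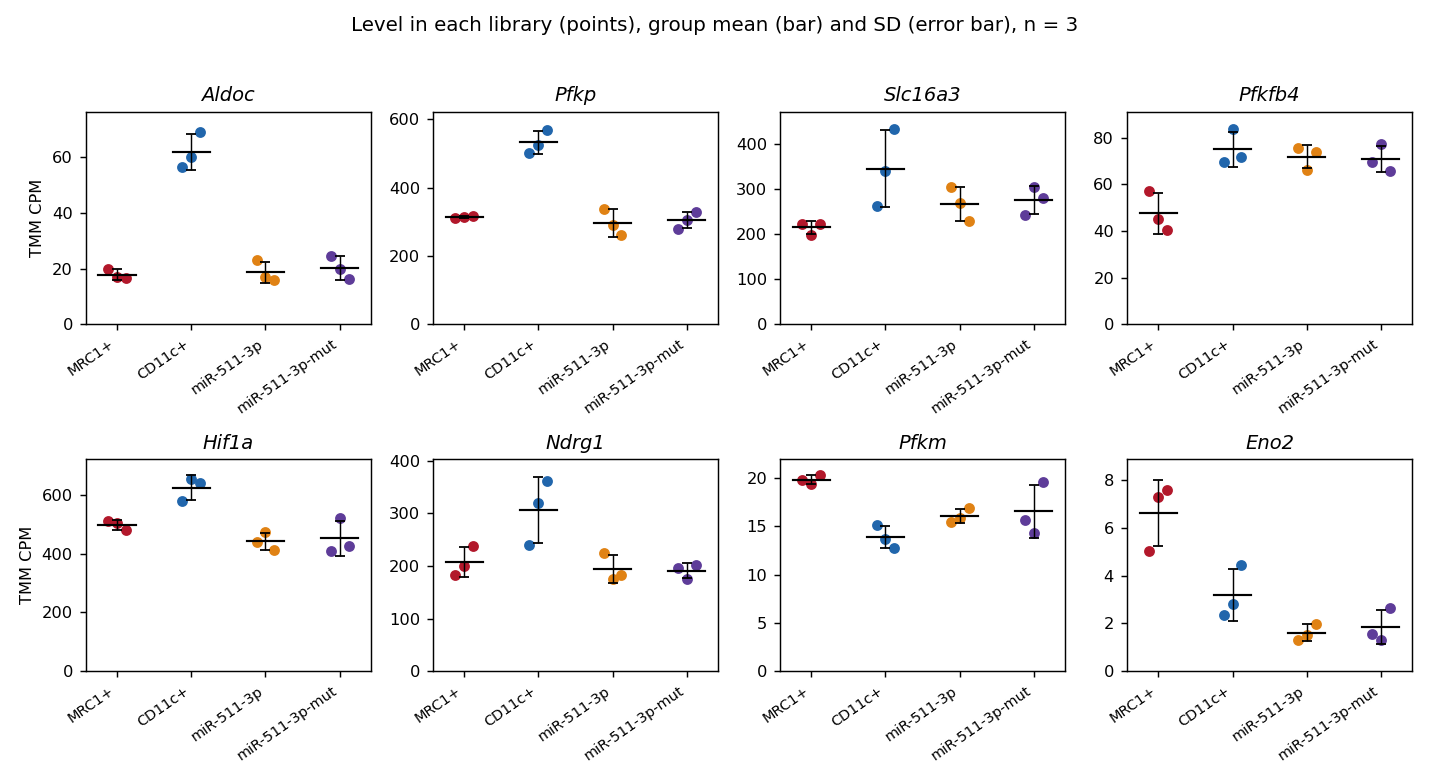
TMM CPM of 8 genes in each of the 12 libraries, with the mean as a bar and the SD as an error bar for each group of 3. The sorted and overexpression libraries were scaled separately. The 3 CD11c+ libraries lie above the 3 MRC1+ libraries for Aldoc, Pfkp, Slc16a3, Pfkfb4, Hif1a and Ndrg1 and below them for Pfkm and Eno2, and the miR-511-3p and miR-511-3p-mut libraries overlap in all 8 panels.

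The remaining genes of this stretch encode triose phosphate isomerase (Tpi1), the dehydrogenase Gapdh, the kinase Pgk1, which makes the first ATP, the mutase Pgam1 and the pyruvate kinase Pkm, which makes the last. Pgk1 stood at 85.2 to 97.8 CPM in MRC1+ and 105 to 120 CPM in CD11c+ libraries, with a log2 fold change of -0.29 ± 0.10 (SE) and an adjusted p of 0.0702. Tpi1, Pgam1 and Pkm had log2 fold changes of -0.16 ± 0.12, -0.15 ± 0.09 and -0.15 ± 0.13 (SE). Their 95% intervals lay within a 1.5-fold change in either direction, as did those of 23 of the 35 members in all. Without the first CD11c+ library Pgk1, Eno1 and Aldoa passed the test as lower, at adjusted p = 0.0379, 0.0259 and 0.0452.

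Neither gene of the fate of pyruvate passed the test. Ldha, the lactate dehydrogenase subunit that turns pyruvate into lactate, stood at 663, 589 and 644 CPM in MRC1+ and at 669, 680 and 824 CPM in CD11c+ libraries. The MRC1+ libraries were all lower, though the first libraries of the groups nearly met, and the log2 fold change was -0.20 ± 0.11 (SE), adjusted p = 0.259. Pdk1, a kinase that shuts the pyruvate dehydrogenase complex and so keeps pyruvate out of the mitochondria, stood at 291 to 301 CPM in MRC1+ and 242 to 266 CPM in CD11c+ libraries. Its log2 fold change was 0.23 ± 0.08 (SE), adjusted p = 0.0905, and without the first CD11c+ library the adjusted p was 0.0404.

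**Figure D3:**
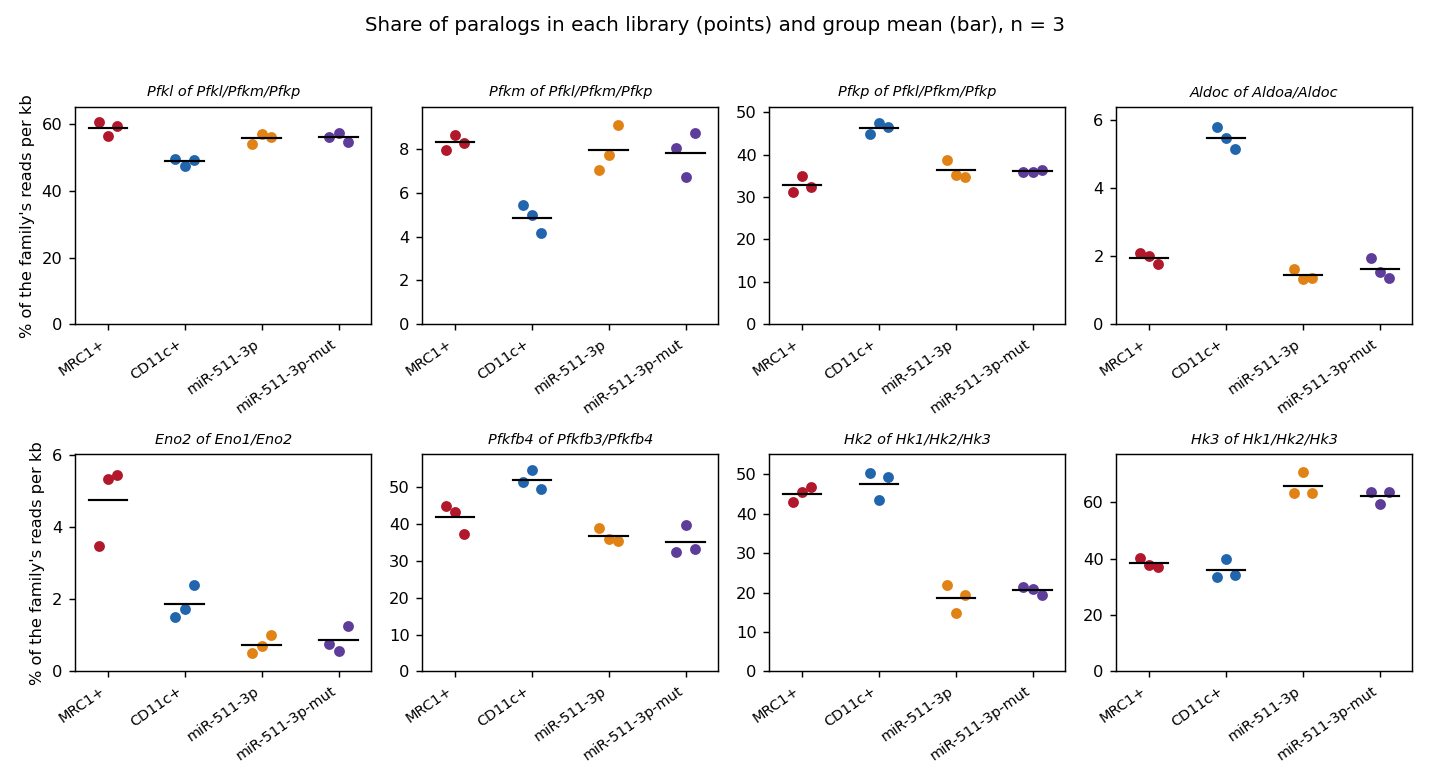
Share of each named gene in the reads per kb of exon of its family, in percent, for each library (points) and as the group mean (bar, 3 libraries). In the sorted groups the libraries do not overlap for Pfkl, Pfkm, Pfkp, Aldoc, Eno2 and Pfkfb4 and overlap for Hk2 and Hk3. The miR-511-3p and miR-511-3p-mut libraries overlap in every panel. Members of a family differ in sequence shared with other genes (75.9% of windows for Eno1, 1.12% for Eno2), and the effect on the shares was not tested.

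Of the oxygen sensing genes, Hif1a was lower in MRC1+ TAMs and the other 3 did not pass the test. Hif1a stood at 511, 503 and 479 CPM in MRC1+ and at 577, 654 and 641 CPM in CD11c+ libraries. The groups did not overlap, and the log2 fold change was -0.33 ± 0.09 (SE), adjusted p = 0.0444. The call was lost with the replicate block (adjusted p = 0.0577), with upper-quartile scaling (0.0721), with no low-count filter (0.0601) and without any library but the first CD11c+ library (0.0836 to 0.15). Hif1a counts are transcripts, and HIF-1α is mainly set by the stability of the protein, which was not measured.

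Epas1, which encodes HIF-2α, stood at 2.18, 3.69 and 4.21 CPM in MRC1+ and at 1.70, 1.49 and 2.26 CPM in CD11c+ libraries. The groups overlapped, since the first MRC1+ library lay below the third CD11c+ library. The log2 fold change was 0.92 ± 0.30 (SE), adjusted p = 0.0738, and without that MRC1+ library the adjusted p was 0.0333. Epas1 held under 1% of the reads per kb of the pair with Hif1a in all sorted libraries. Egln3, a hydroxylase that is itself induced by HIF, stood at 85.1, 97.9 and 101 CPM in MRC1+ and at 92.3, 83.9 and 105 CPM in CD11c+ libraries, with a log2 fold change of 0.02 ± 0.11 (SE). Egln1, the main oxygen sensor of the family, had -0.08 ± 0.09.

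None of the 8 other HIF targets passed the test. Ndrg1, a stress-induced gene widely used as a hypoxia marker, came closest, with 183, 200 and 238 CPM in MRC1+ and 239, 320 and 362 CPM in CD11c+ libraries. The third MRC1+ and the first CD11c+ library nearly met. Its log2 fold change was -0.57 ± 0.16 (SE), with an adjusted p of 0.0507 in edgeR's test, 0.0101 with the replicate block, 0.00728 in DESeq2 and 0.00345 without the first CD11c+ library.

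Bnip3 and Bnip3l encode receptors for the removal of mitochondria. Bnip3 stood at 179, 147 and 159 CPM in MRC1+ and at 146, 153 and 168 CPM in CD11c+ libraries, with a log2 fold change of 0.05 ± 0.10 (SE), and Bnip3l had 0.08 ± 0.08. Car9, the carbonic anhydrase used as a hypoxia marker of tumour cells, had the fewest reads per kb of the 8 and stood at 6.84, 7.01 and 7.07 CPM in MRC1+ and 6.74, 9.05 and 5.87 CPM in CD11c+ libraries. All of these ranges overlapped. P4ha1, a collagen prolyl hydroxylase subunit with most reads per kb of the 8, stood at 466, 393 and 438 CPM against 462, 390 and 436 CPM, with a log2 fold change of 0.01 ± 0.11 (SE) and a 95% interval from -0.23 to 0.25. The log2 fold changes of Ankrd37, Mif and Ero1l were -0.22 ± 0.23, -0.07 ± 0.14 and -0.14 ± 0.11 (SE).

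The libraries of one group did not move evenly. The third CD11c+ library was the highest of its group for 25 of the 35 members, with a median deviation of 0.24 (log2 of CPM plus 1, from the mean of the 6 sorted libraries) for the 23 glycolytic members and 0.14 for the 12 hypoxia members. The second MRC1+ library was the lowest of its group for 21 members, with median deviations of -0.19 and -0.10. The median over all genes tested was 0.01 or less in size in every library. The third CD11c+ library also had the fewest counted reads, 10824918, and the highest summed level of 8 dendritic cell markers, 656 CPM. Without it, 3 members were called lower, Aldoc (-1.70), Pfkp (-0.70) and Pfkfb4 (-0.67), and 2 higher, and the median log2 fold change of the members was -0.06.

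**Figure D4:**
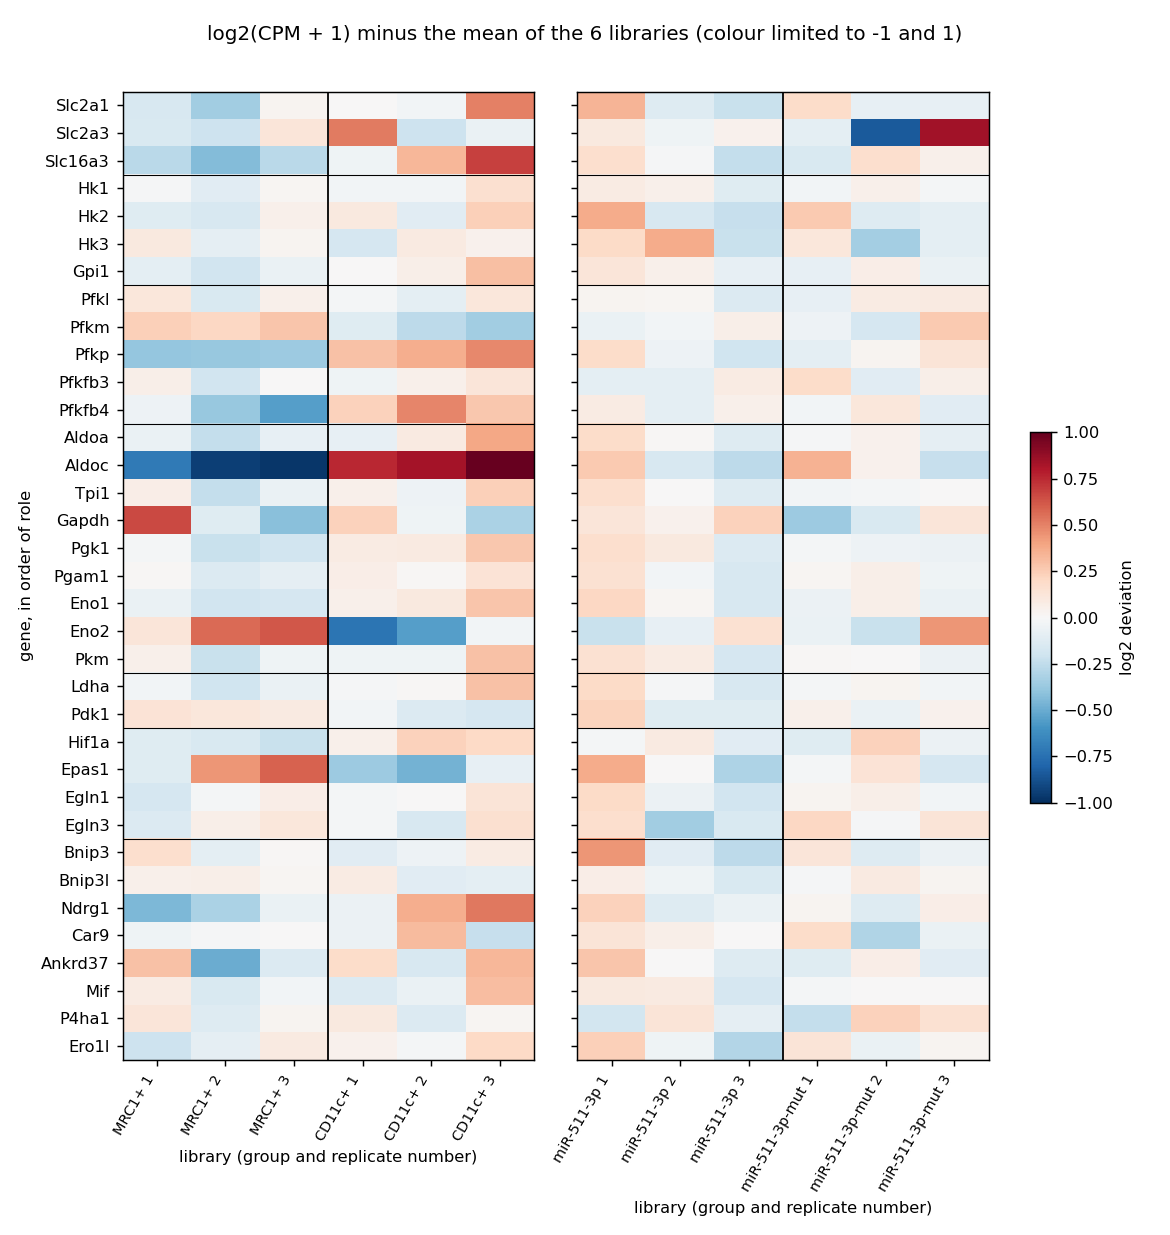
Each row is a gene and each column a library. Colour gives log2 of CPM plus 1 minus the mean of the 6 libraries of the comparison, limited to -1 and 1, and horizontal lines part the roles. Aldoc and Pfkp change colour between MRC1+ and CD11c+ libraries, the third CD11c+ column is red for most rows, and on the right the first miR-511-3p column is red and the third blue for most rows.

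Lists of markers of other cell types also differed between the sorted groups. All 8 dendritic cell markers (Flt3, Zbtb46, Ccr7, Dpp4, Cd209a, Irf4, Xcr1 and Ccl22) were lower in MRC1+ TAMs, with sums of 39.1 to 41.1 CPM against 339 to 656 CPM. Of 6 monocyte markers 1 was higher and 5 lower, with sums of 2680 to 3010 against 2170 to 2550 CPM. Of 6 epithelial and carcinoma markers tested 4 were higher and 2 lower, with sums of 151 to 219 against 124 to 178 CPM, and Cldn4 was at 0 in the CD11c+ group. None of 13 fibroblast markers passed the test. Their sums were 1050 to 1310 CPM in MRC1+ TAMs. Of 8 T and NK cell markers tested 2 were lower, with sums of 8.08 to 13.1 against 16.2 to 27.4 CPM. Of 4 endothelial markers 1 was higher and 2 lower, with sums of 32.4 to 42.2 against 82.5 to 125 CPM, and of 6 neutrophil markers 1 was lower, with sums of 80.8 to 103 against 92.7 to 158 CPM. No B cell or erythroid marker passed the test. Of the 6 macrophage markers 2 were higher in MRC1+ TAMs. As a measure of RNA quality, 8 genes of the mitochondrial genome were tested, of which 2 were higher, with sums of 2790 to 3510 against 2900 to 3040 CPM. The part of these cells and of RNA quality in the differences of the glycolytic genes was not tested, and in bulk RNA fewer cells of a type and less RNA per cell cannot be told apart.

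Beyond the 35 members, 75 other genes of glucose metabolism and the HIF response were examined, of which 66 passed the low-count filter. In MRC1+ TAMs 6 of the 66 were higher and 13 lower, where all genes tested give 6.91% and 9.71%, and their median log2 fold change was -0.06. With the replicate block 10 were higher and 15 lower. Without CD11c+ replicate 1 the counts were 12 and 16. They were 3 and 9, 4 and 4, and 3 and 7 without MRC1+ replicates 1, 2 and 3, and 3 and 8 without CD11c+ replicate 2. By list, 2 were higher and 6 lower of 18 genes of glucose entry and side paths, 0 and 2 of 18 remaining glycolytic genes, 0 and 1 of 5 genes of the HIF machinery, and 4 and 4 of 25 other HIF targets.

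Slc2a6, a glucose transporter of the GLUT family found in leukocytes, stood at 14.4, 9.54 and 18.4 CPM in MRC1+ and at 32.2, 36.2 and 80.9 CPM in CD11c+ libraries, a log2 fold change of -1.81 ± 0.38 (SE) with an adjusted p of 0.0151. Among pentose phosphate genes, transketolase (Tkt) stood at 334 ± 32.9 against 508 ± 68.5 CPM (SD, n = 3), transaldolase (Taldo1) at 108 ± 14.1 against 178 ± 39.9, and glucose 6-phosphate dehydrogenase (G6pdx), the entry enzyme, at 71.9 ± 3.28 against 94.9 ± 7.43. Their log2 fold changes were -0.61, -0.71 and -0.40, with adjusted p = 0.0144, 0.0228 and 0.0192 in edgeR's test. Pgd, the enzyme after G6pdx, had -0.37 with an adjusted p of 0.0386 and is named after its value was seen. Of the 3 remaining listed genes of the pentose phosphate pathway, which branches from glycolysis to make NADPH, none passed: Rpe had -0.35 (adjusted p = 0.0623, and 0.0438 with the replicate block), Rpia -0.24 and Pgls 0.05. The transporter and the 4 enzymes that passed, which are named because they passed, were lower in every MRC1+ library than in any CD11c+ library. Of the 66 other pathway genes tested, 20 lay wholly lower and 16 wholly higher in MRC1+ libraries, where all genes give 19.6% and 18.7%.

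Pygl, the glycogen phosphorylase that frees glucose from glycogen, fell with them (-0.88 ± 0.13 SE, adjusted p = 0.00329), as did Pdk3, a sister kinase of Pdk1 (-0.77 ± 0.10, 0.00223), and Vhl, the ubiquitin ligase subunit that recognises hydroxylated HIF (-0.58 ± 0.13, 0.0196). Among HIF targets Ddit4, an inhibitor of mTORC1, stood at 28.0 ± 3.87 against 66.6 ± 12.2 CPM (SD, n = 3), the transcription repressor Bhlhe40 at 183 ± 45.2 against 478 ± 185, and the receptor Gpr35 at 113 ± 14.3 against 282 ± 52.8. Their adjusted p in edgeR's test was 0.00134, 0.0121 and 0.00113.

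In the higher direction, the lysyl hydroxylase Plod1 stood at 203 ± 6.14 CPM in MRC1+ and 115 ± 4.07 in CD11c+ TAMs (SD, n = 3), a log2 fold change of 0.82 ± 0.08 (SE) with an adjusted p of 0.000398. P4ha2, a sister subunit of P4ha1, had 0.68 ± 0.11 (adjusted p = 0.00544). Pgm2l1, which makes glucose 1,6-bisphosphate, had 0.92 ± 0.11 (0.0014), Gbe1, the glycogen branching enzyme, 0.35 ± 0.10 (0.0449), arginase Arg1 0.63 ± 0.17 (0.0433) and the nuclear receptor Rora 0.35 ± 0.10 (0.0413). With the block, Rora no longer passed (0.0536), and genes that passed as higher included Adm, Angptl4, Pdp1 and Hmox1 (0.0307, 0.0328, 0.0251 and 0.0376). Without it these had adjusted p = 0.0607, 0.0759, 0.0632 and 0.128.

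**Figure D5:**
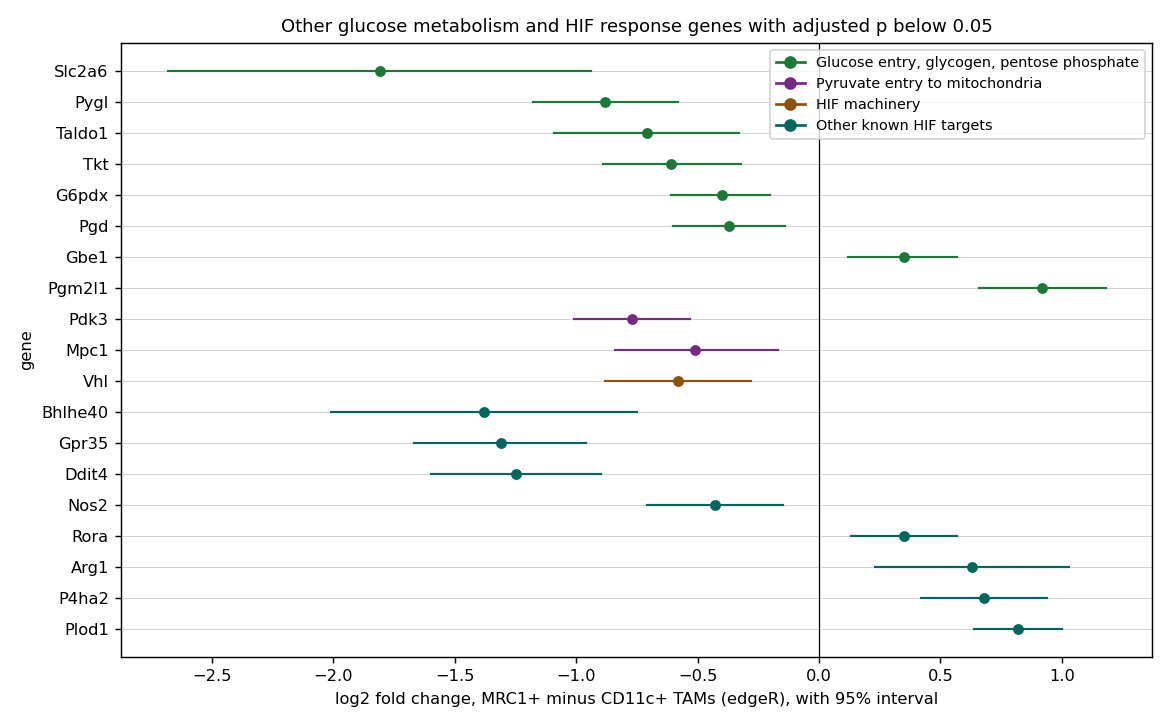
Log2 fold change (MRC1+ minus CD11c+ TAMs, 3 libraries each, edgeR) of the 19 other pathway genes with an adjusted p below 0.05, with 95% intervals, coloured by group. Slc2a6, Pygl and the pentose phosphate genes Taldo1, Tkt, G6pdx and Pgd lie to the left of 0, and Plod1, P4ha2, Arg1 and Rora to the right.

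The first CD11c+ library decided some of these genes. Plod2, another lysyl hydroxylase and HIF target, stood at 127, 128 and 159 CPM in MRC1+ and at 169, 46.6 and 54.9 CPM in CD11c+ libraries. Slc16a1, which encodes the lactate transporter MCT1, stood at 219, 213 and 207 CPM against 231, 121 and 114 CPM. For both, the first CD11c+ library stood with the MRC1+ libraries, and both were named after their values were seen. Without it the adjusted p was 0.000169 for Plod2 and 0.000222 for Slc16a1, and with it 0.363 and 0.239. The part of the fibroblast markers of that library in these values was not tested.

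The second comparison set TAMs that overexpressed miR-511-3p against those that overexpressed the mutated form. No member passed the test. In edgeR's test 0 of the 35 were higher and 0 lower, where 0% of all 14054 genes tested passed in either direction, and 0 of the 35 had an unadjusted p below 0.05, where 2.44% of all genes did. DESeq2 also called 0 of the 35. The libraries of the groups overlapped for all 35 members, while over all genes 2.79% lay wholly higher and 3.59% wholly lower in miR-511-3p TAMs. Log2 fold changes ran from -0.21 to 0.27 with a median of 0.00. For 30 members the 95% interval lay within a 1.5-fold change in either direction, and the exceptions were Slc2a3, Hk3, Gapdh, Eno2 and Epas1.

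Hif1a stood at 438, 472 and 413 CPM in miR-511-3p and at 408, 520 and 426 CPM in miR-511-3p-mut libraries, with a log2 fold change of -0.03 ± 0.11 (SE) and a 95% interval from -0.28 to 0.22. Slc2a1 stood at 357, 259 and 242 CPM against 320, 267 and 267 CPM, with a log2 fold change of 0.01 ± 0.16. Both genes overlapped between the groups, and the first library was the highest for Slc2a1 in each.

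The 7 genes that differed between the sorted groups overlapped here. Aldoc stood at 23.1, 17.1 and 15.9 CPM against 24.7, 19.8 and 16.2 CPM (log2 fold change -0.12 ± 0.19 SE). Pfkp had means of 296 ± 40 and 305 ± 24.1 CPM (SD, n = 3), with a log2 fold change of -0.04 ± 0.11 (SE). For Slc16a3, Pfkfb4 and Pfkm the log2 fold changes were -0.04 ± 0.12, 0.02 ± 0.08 and -0.04 ± 0.13 (SE), and for Eno2, with 124 and 137 reads per group, -0.18 ± 0.32. The difference between the 2 comparisons was not tested.

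None of the 3 genes with a seed match passed the test. Ldha stood at 645, 561 and 507 CPM in miR-511-3p and at 555, 579 and 552 CPM in miR-511-3p-mut libraries, with a log2 fold change of 0.02 ± 0.10 (SE) and a 95% interval from -0.20 to 0.25. Pdk1 stood at 168, 132 and 133 CPM against 150, 137 and 149 CPM, with a log2 fold change of -0.01 ± 0.10. Slc2a3 stood at 6.13, 5.45 and 5.83 CPM against 5.19, 2.71 and 10.8 CPM. The spread among its mutated-form libraries left a 95% interval from -1.13 to 0.93, so a 1.5-fold change of Slc2a3 was not detectable here.

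The members of lowest unadjusted p were Gapdh (log2 fold change 0.27 ± 0.14 SE), Egln3 (-0.21 ± 0.13) and Hk3 (0.23 ± 0.17), none with an adjusted p below 1. Egln3 stood at 55.2, 38.3 and 44.1 CPM against 56.6, 48.5 and 53.5 CPM. Hk3, the hexokinase with most reads per kb in both overexpression groups, stood at 397, 451 and 298 CPM against 375, 275 and 324 CPM. For both the groups overlapped. Epas1 (6.26, 4.63 and 3.53 against 4.55, 5.21 and 4.01 CPM), Bnip3 (138, 94.3 and 84.7 against 110, 92.8 and 97.4 CPM) and Car9 (9.83, 9.29 and 8.91 against 10.2, 7.03 and 8.41 CPM) overlapped as well.

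Within the miR-511-3p group the members moved with the library. The first library was the highest of its group for 28 of the 35 members and the third the lowest for 25. The median deviations of the first were 0.17 for glycolytic and 0.18 for hypoxia members, and those of the third -0.14 and -0.15, while the median over all genes was 0.00 in both. The fibroblast markers summed to 111, 114 and 332 CPM in the 3 miR-511-3p libraries and to 231, 221 and 855 CPM in the miR-511-3p-mut libraries, and no marker of any cell type list passed the test. The part of these cells in the spread of the members was not tested.

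Of the 75 other pathway genes 65 were tested in this comparison, with 0 higher and 0 lower in edgeR's test and 0 at an unadjusted p below 0.05. DESeq2 called 0. The lowest unadjusted p in the lower direction were those of Plod2 (-1.52 ± 0.65 SE) and Bpgm, the bisphosphoglycerate mutase (-0.24 ± 0.13), and in the higher direction those of Cited2, a HIF inhibitor (0.14 ± 0.08), and the haem oxygenase Hmox1 (0.56 ± 0.35). Plod2 stood at 4.44, 3.99 and 12.2 CPM in miR-511-3p and at 10.7, 10.2 and 38.7 CPM in miR-511-3p-mut libraries, and Hmox1 at 1580, 1400 and 668 CPM against 922, 1000 and 538 CPM. For both the third library of each group stood apart from the other two, and the groups overlapped.

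Across the 4 groups the mix of hexokinases and of HIF hydroxylases differed between the sorted and the overexpression libraries. Hk3 held 33.4% to 40.3% of the hexokinase reads per kb in the 6 sorted libraries and 59.4% to 70.8% in the 6 overexpression libraries, and Hk2 43.0% to 50.2% and 14.8% to 21.8%. Egln3 held 54.7% to 58.9% of the reads per kb of the pair with Egln1 in the sorted libraries and 32.5% to 40.1% in the overexpression libraries. These sets do not overlap. They also differed in the summed level of the mitochondrially encoded genes, 2790 to 3510 CPM in the sorted and 8630 to 10100 CPM in the overexpression libraries, and in reads over no gene, 19.7% to 26.6% against 7.64% to 10.4%. Within that sum mt-Co2 went the other way. Its means were 39.6 CPM in MRC1+, 36.5 in CD11c+, 2.6 in miR-511-3p and 3.11 in miR-511-3p-mut libraries. No reads were counted for mt-Co3 and mt-Atp6. The part of these differences in the shares was not tested. Sort gate, transgene and any batch cannot be told apart between these sets, so no test was made.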

How the data were processed

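Sequencing libraries came from the TruSeq RNA kit of Illumina, per the labels' protocols. What the authors deposited is raw read counts per Ensembl gene, a table for each library. Per the submitters' processing notes, the tools were HTSeq, SAMtools 0.1.12a, TopHat 1.2.0 and Bowtie, with mouse build mm9 (NCBIM37). The labels give neither read length nor strand setting, so reads of overlapping or antisense genes may be mixed. The 5 summary entries of each table entered neither library sizes nor tests. Of the reads, 19.7% to 26.6% in sorted and 7.64% to 10.4% in overexpression libraries lay over no gene, and 12.8% to 20.1% of a library aligned to several places. A symbol from GENCODE M21 (GRCm38) was found for 31819 of 36439 identifiers. Exon lengths and 3′ UTRs came from the same annotation, and coordinates are those of GRCm38, not of the counts' build.

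Each pair of groups was fitted on its own 6 libraries with edgeR 4.0.16 (R 4.3.3, limma 3.58.1): TMM, filterByExpr and the quasi-likelihood test, with Benjamini-Hochberg adjustment over all genes at 0.05. SE is the absolute log2 fold change over the square root of F, and 95% intervals use the t quantile at the fit's degrees of freedom. Steps were tested on simulated counts. Alternatives were RLE and upper-quartile factors, DESeq2 1.42.0, no filter, a filter of 5 CPM in 3 libraries, the replicate block, all 12 libraries in a fit, and leaving out each library. Within groups, chi-square per degree of freedom between libraries was 9.18 to 33, so none was a duplicate within sampling noise.

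The members, the other pathway genes and the markers were chosen with earlier results of these data known. Values in every sorted library are given for members that passed the test with or without the block, for the member with most reads per kb in each role, and for Hif1a, Epas1, Egln3, Slc2a1, Ldha, Bnip3 and Car9, except that Hk2 and in part Pfkp are given as means ± SD. Single values of the overexpression libraries are given for only some of these members. Other pathway genes that passed are named up to 10 per direction by lowest p, or the 2 of lowest p where none passed. The values of 1 such gene are not reported here. The main fit took no account of replicate numbers, so its p-values, SE and intervals are unpaired. Replicate numbers were treated as pairs only in the replicate block, an alternative fit. The reason was that every same-numbered pair had a correlation above 0.1 in its deviations from the group means. The correlations were 0.104, 0.337 and 0.250 (sorted) and 0.147, 0.258 and 0.462 (overexpression). This pairing comes from the data, not the labels. For miR-511-3p replicate 1 the correlation was higher with mutated-form replicate 2 (0.166).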

Additional observations from a re-analysis of the deposited data

How the results depend on the processing

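Aldoc and Pfkp were called in all 13 alternatives, with log2 fold changes of -1.87 to -1.70 for Aldoc and -0.80 to -0.70 for Pfkp. Leaving out single libraries moved the members called lower in MRC1+ TAMs between 2 and 9 (9 without CD11c+ replicate 1, 2 without MRC1+ replicate 2 or 3 or CD11c+ replicate 2, 3 without MRC1+ replicate 1 or CD11c+ replicate 3), and those called higher between 0 and 3 (0 without MRC1+ replicate 2 or 3 or CD11c+ replicate 2, 3 without MRC1+ replicate 1 or CD11c+ replicate 1). The cause was not tested. Other pathway genes called higher were 11 with no low-count filter, 10 with the replicate block and 3 to 12 when single libraries were left out, and those called lower 4 to 16. Named genes whose log2 fold change turned direction in the sorted comparison when a single library was left out were Slc2a3 (-0.37 to 0.08), Hk1 (-0.11 to 0.01), Hk3 (-0.05 to 0.08), Pfkl (-0.04 to 0.08), Gapdh (-0.24 to 0.34), Egln1 (-0.15 to 0.00), Egln3 (-0.06 to 0.11), Bnip3 (-0.01 to 0.12), Car9 (-0.17 to 0.14), Mif (-0.16 to 0.09), P4ha1 (-0.06 to 0.06) and Pgls (-0.00 to 0.13), over the 6 fits. Between the overexpression groups the same was so for Slc2a1 (-0.18 to 0.11), Slc2a3 (-0.46 to 0.55), Slc16a3 (-0.15 to 0.05), Hk1 (-0.04 to 0.06), Hk2 (-0.21 to 0.13), Pfkm (-0.13 to 0.10), Pfkp (-0.15 to 0.04), Pfkfb4 (-0.03 to 0.09), Aldoa (-0.04 to 0.11), Aldoc (-0.30 to 0.05), Tpi1 (-0.05 to 0.10), Pgam1 (-0.11 to 0.05), Eno1 (-0.05 to 0.14), Eno2 (-0.37 to 0.17), Pkm (-0.02 to 0.13), Ldha (-0.07 to 0.10), Pdk1 (-0.13 to 0.05), Hif1a (-0.10 to 0.08), Epas1 (-0.17 to 0.24), Egln1 (-0.14 to 0.05), Bnip3 (-0.16 to 0.21), Ndrg1 (-0.10 to 0.09), Ankrd37 (-0.01 to 0.22), Mif (-0.03 to 0.10) and Ero1l (-0.19 to 0.07). None of these was called. With all libraries kept, the sign also turned for P4ha1 in the sorted comparison (-0.00 in DESeq2) and, between the overexpression groups, for Slc2a1 (-0.01 with the replicate block, -0.00 with upper-quartile scaling and in the fit of all 12 libraries), Slc2a3 (0.07 with the block), Hk1 (-0.00 with RLE or upper-quartile factors, the 5 CPM filter and all 12 libraries) and Hk2 (0.00 with no filter). Upper-quartile scaling moved the median of all genes from 0.01 to 0.06 and that of the members from -0.15 to -0.09. With the replicate block, the pairing moved the members called higher and lower to 2 and 5, as without it, with Ndrg1 in place of Hif1a, and changed no other member's call. Between miR-511-3p and its mutated form no member was called in any alternative run. Of the values of single named genes in the sorted comparison over these alternatives, 684 kept their direction and side of the threshold, 81 lost and 33 gained a call and 20 turned direction, and between the overexpression groups 451 kept and 54 turned. Few reads limit Eno2 (343 in MRC1+ and 130 in CD11c+ libraries) and Epas1 (174 and 76).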
